A study of Mus musculus with 18 samples.

Results

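Tubulins are the building blocks of microtubules, and the transcripts of 10 alpha and beta tubulin genes were described here in mouse malignant peripheral nerve sheath tumor (MPNST) cell lines. The 10 genes were taken by name from a table of 35275 genes. They are the alpha tubulin genes Tuba8, Tuba1a, Tuba1b, Tuba1c and Tuba4a and the beta tubulin genes Tubb2a, Tubb2b, Tubb3, Tubb5 and Tubb6. Another 6 alpha or beta tubulin genes of the table were used only for the totals of each family. Tuba8 was selected on its difference between the genotypes in these same counts, so that difference is a description, given without a p-value. The genotype difference of the other 9 genes is given in the same way. Calls of these genes by the fits are counted further below and are no support for a difference.

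The RNA-seq experiment held 18 libraries from 6 cell lines, each grown from its own tumor and sequenced as 3 cultures. Tumors arose in wild-type 129 Sv/Jae mice after injection of the sciatic nerve with an adenovirus that carried Cas9 and guides to Nf1 together with p53 or to Nf1 together with Cdkn2a. All 6 lines thus share the targeting of Nf1, and they differ in the second tumor suppressor: 3 lines are Nf1/p53 double knockout (dKO) and 3 are Nf1/Cdkn2a dKO. Each line stands for 1 tumor, the cells were left untreated in DMEM with 10% FBS, and no line without these edits was analysed here. The genotypes are called Nf1/p53 and Nf1/Cdkn2a from here on. Levels are CPM, the counts summed over the 3 cultures of a line and scaled to a library of 1000000 counts after TMM (a normalization between libraries), and a positive log2 fold change means a higher level in the Nf1/Cdkn2a lines.

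Microtubules are hollow polymers of paired alpha and beta tubulin, and mammals encode each subunit in several genes whose products, called isotypes, are mixed in the same polymer. Isotypes differ mostly in their C-terminal tails, where enzymes add or remove a terminal tyrosine and chains of glutamate or glycine, and in the tissue where they are made. Peripheral nerve depends on microtubules for transport along axons and for the shape of Schwann cells, and microtubules form the spindle of every dividing cell, the target of taxanes and vinca alkaloids.

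Of the 5 alpha genes described, Tuba8 is the least like the others, and it differs from the other 4 at the lysine where alpha tubulin is best known to be acetylated. The coding sequences below were read from the GENCODE M21 transcripts (build GRCm38), 5′ to 3′ on the coding strand. The stretch from codon 36 to codon 45 is shown because it holds codon 40, printed in capitals, the lysine that the acetyltransferase Atat1 modifies inside the microtubule. Tuba1b and Tuba1c have the same letters here as Tuba1a. The codon AAG encodes lysine and GCC, in Tuba8, encodes alanine.
Tuba1a: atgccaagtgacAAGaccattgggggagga
Tuba4a: atgcccagcgatAAGaccattggtggaggg
Tuba8: tttggcactcagGCCagcaagatcaacgat

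Among the beta tubulins, the stretch from codon 235 to codon 244 is shown because codon 239, in capitals, is the only one of the first 430 that encodes cysteine (TGC) in Tubb5, Tubb4b, Tubb2a and Tubb2b and serine in Tubb3 (TCC) and Tubb6 (TCA). Tubb2b has the same letters here as Tubb2a.
Tubb5: ggcgtcaccaccTGCctccgtttcccgggc
Tubb2a: ggagtgaccaccTGCctgcgcttcccaggc
Tubb3: ggagtcaccaccTCCcttcgattccctggt

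These similarities also decide how well reads can be given to a gene. Over the first 430 codons, Tuba8 shared from 79.6% to 81.3% of its bases with the other 4 alpha genes, against 98.3% between Tuba1a and Tuba1b and 99.4% between Tuba1b and Tuba1c. Of all windows of 100 bases in the annotated transcript, 65.8% in Tuba1a, 73.0% in Tuba1b and 53.4% in Tuba1c also occurred in another gene, so the split of reads among these 3 genes is uncertain. Tubb2a and Tubb2b shared 96.6% of the same bases, and 36.9% and 27.7% of their windows occurred elsewhere. Tubb3, Tubb5 and Tubb6 had no such window. In Tuba8, 12.5% of the windows lie under Gm15856, a gene on the opposite strand that had 1 count in all 18 libraries. Tuba4a overlaps Stk16 on the opposite strand over 46.7% of its windows, and Stk16 had 24556 counts against 29540 for Tuba4a. A strand setting of the counting is not given in the sources used here, so the level of Tuba4a is uncertain too.

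Libraries held from 19560535 to 28312207 counts and lines from 65206479 to 73065228. Of the targeted genes, Trp53 had 58.7 to 94.1 CPM in the Nf1/p53 lines and 185 to 247 CPM in the Nf1/Cdkn2a lines, while the ranges of Nf1 (27.7 to 70.0 and 12.7 to 38.2 CPM) and Cdkn2a (42.9 to 363 and 169 to 392 CPM) overlapped. The labels call the cells mesenchymal, and 8 mesenchymal markers summed to between 10500 and 24310 CPM per line. Sox10, 1 of 8 Schwann cell markers and picked with its values known, was at or below 0.0990 CPM in each line. It does not stand for that list, since the 8 summed to 15.4 to 92.4 CPM in the Nf1/p53 lines. In the Nf1/Cdkn2a lines they summed to 7.27 to 66.3 CPM.

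Tuba8 (GRCm38 chromosome 6, 121210696 to 121226854, plus strand, with later positions on the same build) was nearly silent in the Nf1/p53 lines and counted at a low level in the Nf1/Cdkn2a lines. Tuba8 had 6, 18 and 3 counts in the 3 Nf1/p53 lines, which is 0.0773, 0.255 and 0.0415 CPM. In the Nf1/Cdkn2a lines it had 140, 276 and 302 counts, or 2.25, 3.98 and 4.72 CPM. No Nf1/p53 line reached the level of an Nf1/Cdkn2a line, and the same held for single cultures, since 3 of the 9 Nf1/p53 cultures had no Tuba8 count and the highest had 10, while the Nf1/Cdkn2a cultures ranged from 40 to 110. A count of 0 allows up to 3 counts in a culture.

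Summed over lines and scaled to depth, the Tuba8 level was 30.0-fold higher in the Nf1/Cdkn2a lines, with a 95% interval from 20.4 to 45.8 that covers counting error only. The fitted log2 fold change was 4.86 with a standard error (SE) of 0.78 (n = 3 lines each). With any 1 of the 6 lines left out it lay between 4.45 and 5.90, the highest value being that without Nf1/p53 line 2, which held 18 of the 27 Nf1/p53 counts. In these bulk cultures, a change in the number of cells that express a gene and a change in the RNA per cell cannot be told apart.

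Within the Nf1/Cdkn2a lines, the Tuba8 level also differed between lines. It was 2.28 ± 0.61 CPM in line 1, 4.00 ± 0.67 CPM in line 2 and 4.70 ± 0.35 CPM in line 3 (mean ± SD of 3 cultures), with an adjusted p of 0.00508 in edgeR's test of line, which uses only these 9 cultures and plays no part in the selection of Tuba8. The counting intervals of line 2 (3.53 to 4.48 CPM) and line 3 (4.21 to 5.29 CPM) overlapped, and line 1 lay below both (1.89 to 2.65 CPM). Without the cultures numbered 3, Tuba8 did not pass this test. In the Nf1/p53 lines the counts of Tuba8 were too few for it.

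In adult mammals Tuba8 is known from heart, skeletal muscle and testis. The 8 skeletal muscle markers summed to 58.7, 60.8 and 325 CPM in the Nf1/p53 lines and to 6.72, 1.18 and 5.05 CPM in the Nf1/Cdkn2a lines. Myod1, a master regulator of myogenesis, had 1.75, 0.269 and 203.6 CPM in the Nf1/p53 lines and no count in the Nf1/Cdkn2a lines (adjusted p = 0.172, edgeR), so its level was high in Nf1/p53 line 3 alone. Myf5, another myogenic regulator, had 5884 counts in the Nf1/p53 lines and 1 in the Nf1/Cdkn2a lines (adjusted p = 0.00672, edgeR). Of the 6 muscle markers tested, Myf5 was the only one called, beside 1.80% of all genes. The call was lost without Nf1/Cdkn2a line 1 (adjusted p = 0.0795, edgeR) and with the line number as a block (adjusted p = 0.0963, edgeR). In each of these settings edgeR called 0 of all genes tested, so the loss is not particular to Myf5. Myod1, Myf5 and Des passed the filter on low counts through the Nf1/p53 lines. Their direction, the p-values given here and the call of Myf5 are therefore no separate evidence.

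Of the 3 nearest genes on each side of Tuba8, Pex26, Usp18 and Mical3 had enough counts for the edgeR test. None of them passed an adjusted p under 0.05, beside 1.80% of all genes. Mical3 alone had an unadjusted p under 0.05 (22.4% over all genes) and alone was called by DESeq2 on the 6 lines (14.4% over all genes). Pex26, a peroxisome assembly factor whose annotated end is 11858 bases before Tuba8, had 12.8, 6.68 and 5.63 CPM in the Nf1/p53 lines, against 7.57, 11.2 and 9.93 CPM in the Nf1/Cdkn2a lines, which overlap (adjusted p = 0.790). Usp18, a negative regulator of interferon signaling that starts 19051 bases after Tuba8, had 2.85, 2.11 and 2.88 CPM against 0.465, 0.620 and 2.81 CPM (adjusted p = 0.452). Mical3, an actin-oxidizing enzyme of vesicle transport, had 24.0 to 25.1 CPM against 16.5 to 17.7 CPM. Its direction was opposite to that of Tuba8 (log2 fold change −0.53, adjusted p = 0.109 from edgeR). It was the neighbor whose lines did not overlap, beside 31.4% of all genes. The other neighbors, Gm4651, Gm15856 and Slc6a13, had at most 0.471 CPM in any line.

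The 3 Tuba1 genes supplied nearly all alpha tubulin counts in every line. Tuba1b, the alpha isotype made in most dividing cells, had 1262, 1307 and 1775 CPM in the Nf1/p53 lines, against 1254, 1067 and 1093 CPM in the Nf1/Cdkn2a lines. All Nf1/p53 lines lay above the Nf1/Cdkn2a lines, but the closest pair, Nf1/p53 line 1 and Nf1/Cdkn2a line 1, were almost level. The fitted log2 fold change was −0.35 with a standard error of 0.18, and −0.17 without Nf1/p53 line 3. Tuba1b lies on chromosome 15 (98931425 to 98934565).

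Tuba1a (chromosome 15, 98949837 to 98953703), the alpha isotype abundant in developing neurons, had 645, 810.1 and 796 CPM in the Nf1/p53 lines, against 798, 779 and 726 CPM in the Nf1/Cdkn2a lines. Tuba1c (chromosome 15, 99029891 to 99038110) had 567, 481 and 618 CPM against 657, 581 and 514 CPM. The lines overlapped for both genes. Their fitted log2 fold changes were 0.03 (SE 0.15) and 0.07 (SE 0.17), and each turned negative with 1 line left out, down to −0.06 for Tuba1a and −0.01 for Tuba1c. The sum of the 3 genes does not depend on how reads were divided among these 3. The treatment of reads that match several genes is not given in the sources used here, and 11 to 13 genes share windows with each Tuba1 gene, so the sum, the alpha shares and the levels per kilobase still depend on it. The sum was 2474, 2599 and 3189 CPM in the Nf1/p53 lines, against 2708, 2427 and 2334 CPM in the Nf1/Cdkn2a lines, which overlap.

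Tuba4a (chromosome 1, 75214228 to 75219865), whose product ends in glutamate without a tyrosine and which is known from platelets and neurons, was uniform in the Nf1/Cdkn2a lines and scattered in the Nf1/p53 lines. It had 88.6, 58.5 and 29.6 CPM in the Nf1/p53 lines, against 85.1, 85.1 and 81.2 CPM in the Nf1/Cdkn2a lines. Nf1/p53 line 1 was level with the Nf1/Cdkn2a lines and line 3 was the lowest of all 6. The fitted log2 fold change of 0.51 (SE 0.37) was 0.20 without Nf1/p53 line 3 and 0.93 without Nf1/p53 line 1.

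Of the beta isotypes, Tubb5 (chromosome 17, 35833921 to 35838306), the beta tubulin of most proliferating cells, was the most abundant and the most even. Tubb5 had 1791, 1968 and 1972 CPM in the Nf1/p53 lines, against 2117, 1973 and 1852 CPM in the Nf1/Cdkn2a lines. The lines overlapped, and the fitted log2 fold change was 0.05 (SE 0.14).

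Tubb2b (chromosome 13, 34126748 to 34130466), a beta isotype of the developing nervous system, had the lowest fitted value among the 10 genes. It had 54.9, 41.1 and 68.0 CPM in the Nf1/p53 lines, against 11.9, 25.6 and 13.9 CPM in the Nf1/Cdkn2a lines. The lines did not overlap, and the lowest Nf1/p53 line stood well above the highest Nf1/Cdkn2a line. The fitted log2 fold change was −1.67 with a standard error of 0.35, a 3.19-fold lower level in the Nf1/Cdkn2a lines, and it lay between −2.08 and −1.46 with 1 line left out. Its near copy Tubb2a (chromosome 13, 34074274 to 34078007) had 72.5, 82.0 and 105.8 CPM against 68.6, 57.0 and 117 CPM. The lines overlapped, with a fitted log2 fold change of −0.10 (SE 0.30) that was 0.10 without Nf1/Cdkn2a line 2. Their sum was 127, 123 and 174 CPM in the Nf1/p53 lines, against 80.5, 82.7 and 131 CPM in the Nf1/Cdkn2a lines, and the sum did overlap.

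Tubb6 (chromosome 18, 67390717 to 67402749), a beta isotype that disturbs microtubule arrays when overproduced, was higher in each Nf1/Cdkn2a line. Tubb6 had 505, 535 and 465 CPM in the Nf1/p53 lines, against 681, 934 and 736 CPM in the Nf1/Cdkn2a lines. The ranges were apart, with Nf1/Cdkn2a line 2 the highest. The fitted log2 fold change was 0.64 with a standard error of 0.17, and from 0.51 to 0.74 with 1 line left out.

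Tubb3 (chromosome 8, 123411424 to 123422015), the beta isotype used as a marker of neurons and often found in tumors of other origin, was high in 1 line of each genotype. It had 15.8, 32.1 and 17.1 CPM in the Nf1/p53 lines, against 35.8, 14.3 and 11.5 CPM in the Nf1/Cdkn2a lines. Nf1/p53 line 2 and Nf1/Cdkn2a line 1 stood above the other 4 lines, and the genotypes overlapped. The fitted log2 fold change of −0.08 (SE 0.50) ranged from −0.75 without Nf1/Cdkn2a line 1 to 0.33 without Nf1/p53 line 2. Of 8 other neuronal markers, 3 had enough counts. The 8 summed to 224, 52.5 and 125.5 CPM in the Nf1/p53 lines, against 154, 47.0 and 189 CPM in the Nf1/Cdkn2a lines. Of the high Tubb3 lines, Nf1/p53 line 2 had the lowest sum of its genotype and Nf1/Cdkn2a line 1 the middle one. Picked with their values known, the neurofilament genes Nefl (7.16 to 114 CPM) and Nefm (25.9 to 108 CPM) were counted in all 6 lines, while the neuronal nuclear marker Rbfox3 was at or below 0.172 CPM.

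**Figure D1:**
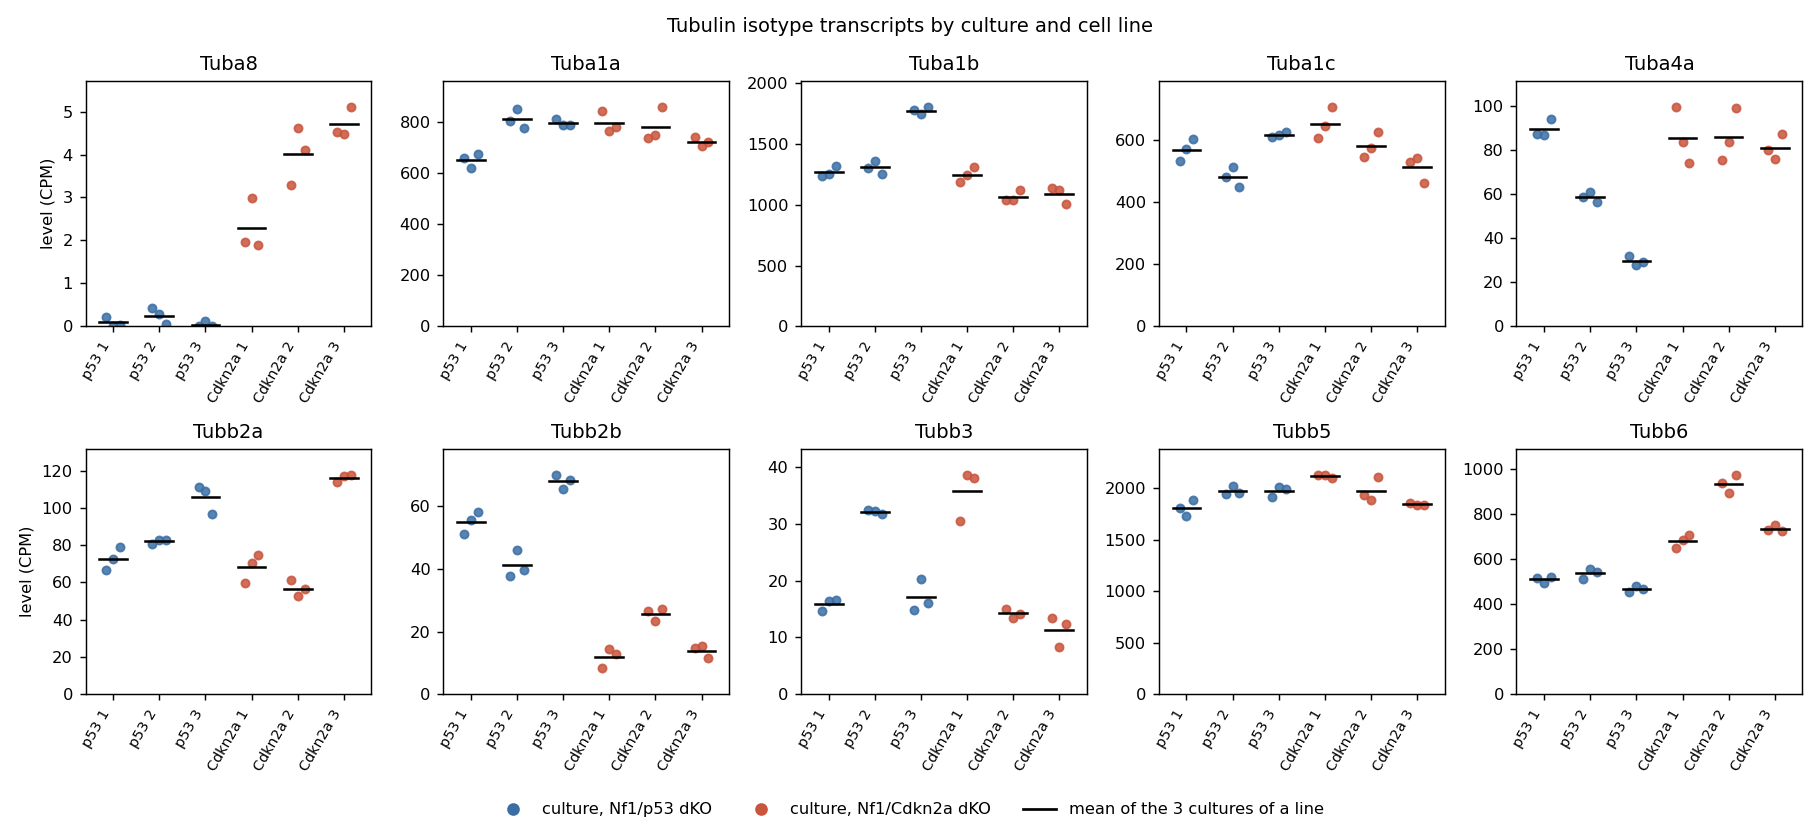
Level of each of the 10 tubulin genes in CPM (linear axes from 0, a separate scale for each gene) in the 3 cultures (points) of each of the 6 lines, with the mean of the cultures as a black line, Nf1/p53 dKO in blue and Nf1/Cdkn2a dKO in red. Tuba8 lies near 0 in the Nf1/p53 lines, Tubb2b is low and Tubb6 high in every Nf1/Cdkn2a line, and Tubb3 is high in 1 line of each genotype.

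Across the 10 genes, 6 were fitted higher and 4 lower in the Nf1/Cdkn2a lines, with a median log2 fold change of 0.04 beside −0.02 over the 15207 genes tested. Tuba8 was the only one of the 10 called at an adjusted p under 0.05 in edgeR, beside 1.80% of all genes tested, and the lines did not overlap for 4 of the 10 (Tuba8 and Tubb6 higher, Tuba1b and Tubb2b lower), beside 31.4% of all genes. Since the genes were proposed with this contrast in view, these counts describe them and support nothing. Tuba8 passed the filter on low counts through the Nf1/Cdkn2a lines, so its call and direction are no separate evidence. The call for Tuba8 was lost whenever any of the 6 lines was left out, in fits that called from 0 to 1.11% of all genes. An exact permutation test of 3 lines against 3 could not give a p under 0.1.

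**Figure D2:**
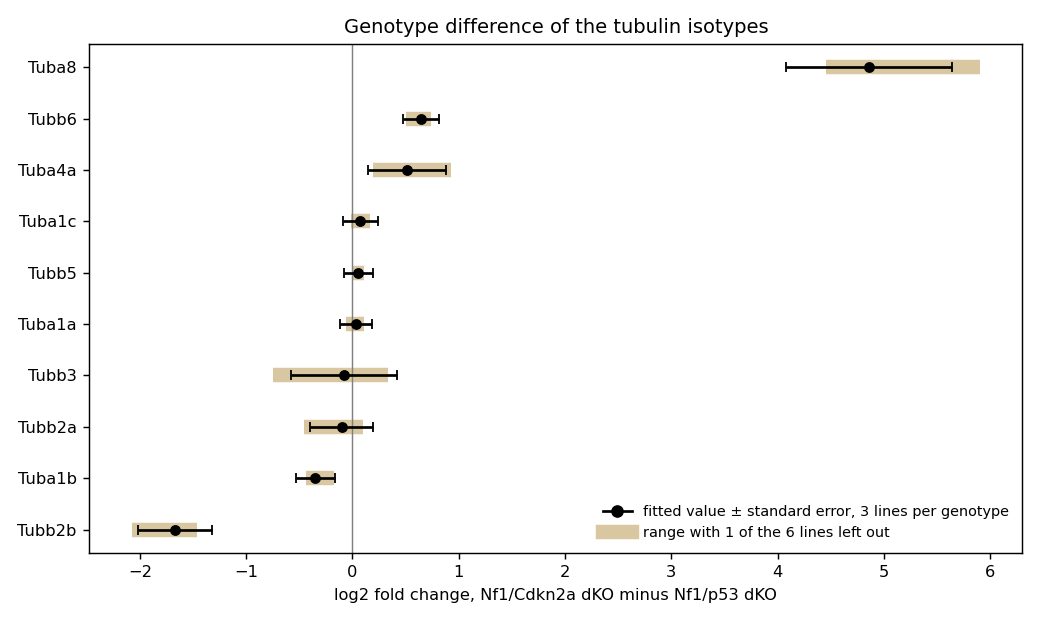
Fitted log2 fold change (Nf1/Cdkn2a dKO minus Nf1/p53 dKO) of the 10 tubulin genes with its standard error (points and bars, n = 3 lines per genotype) and its range with 1 of the 6 lines left out (shaded). Tuba8 at 4.86 and Tubb2b at −1.67 lie farthest from 0, and the ranges of Tuba1a, Tuba1c, Tubb2a and Tubb3 cross it.

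Lines of the same genotype were then compared with edgeR's test over their 9 cultures, which asks whether lines differ by more than cultures of a line and does not use the genotype. These p-values speak of these 3 lines only. In the Nf1/p53 lines, all 9 tubulin genes with enough counts differed between lines at an adjusted p under 0.05, beside 79.7% of all genes. The widest spread was that of Tuba4a, at 89.2 ± 4.2, 58.5 ± 2.2 and 29.6 ± 1.9 CPM in lines 1, 2 and 3 (mean ± SD of 3 cultures), a 3.01-fold range (adjusted p = 3.54e-17). The level of Tuba4a is uncertain, as stated above, because the gene overlaps Stk16 on the opposite strand. Tubb3 ranged 2.03-fold (adjusted p = 2.60e-10), Tubb2b 1.65-fold and Tubb2a 1.45-fold. Tubb5 ranged only 1.09-fold and still passed (adjusted p = 0.00779), though not without the cultures numbered 2. The median gene of the table ranged 1.58-fold.

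In the Nf1/Cdkn2a lines, 8 of the 10 differed between lines, beside 54.2% of all genes. Tubb3 had the widest spread, at 35.7 ± 4.5, 14.2 ± 0.79 and 11.4 ± 2.7 CPM in lines 1, 2 and 3, a 3.15-fold range (adjusted p = 6.37e-08). Tubb2b ranged 2.15-fold with its highest level in line 2 (adjusted p = 3.51e-05), Tuba8 2.06-fold and Tubb2a 2.05-fold with its highest level in line 3 (adjusted p = 7.92e-08). Tubb6 was highest in line 2 (adjusted p = 2.59e-05). Tuba1a (adjusted p = 0.133) and Tuba4a (adjusted p = 0.645) did not pass. The order of lines changed from gene to gene: line 2 was highest for Tubb2b and Tubb6, line 1 for Tubb3 and Tubb5, and line 3 for Tuba8 and Tubb2a. Without the cultures numbered 3, Tubb2a, Tubb2b, Tubb3 and Tubb6 remained of the 8.

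Shares within a family show the isotype mix, and they sum to 100% in a line, so a larger share of 1 gene lowers the others. The alpha family comprises 8 genes of the table and the beta family 8. Of the alpha tubulin counts, Tuba1b took 49.3, 49.2 and 55.1% in the Nf1/p53 lines and 44.8, 42.4 and 45.2% in the Nf1/Cdkn2a lines, without overlap. Tuba1a took 25.2, 30.5 and 24.7% against 28.5, 31.0 and 30.0%, and Tuba1c 22.1, 18.1 and 19.2% against 23.5, 23.1 and 21.3%, and for both the lines overlapped. Tuba4a made up 3.46, 2.20 and 0.918% in the Nf1/p53 lines and 3.05, 3.38 and 3.35% in the Nf1/Cdkn2a lines. The share of Tuba8 was 0.00302, 0.00958 and 0.00129% in the Nf1/p53 lines and 0.0803, 0.158 and 0.195% in the Nf1/Cdkn2a lines. Tuba8 thus stayed a trace of the alpha tubulin transcripts even where it was highest.

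Of the beta tubulin counts, Tubb5 took 62.0, 64.5 and 65.7% in the Nf1/p53 lines and 60.8, 54.7 and 56.5% in the Nf1/Cdkn2a lines. Tubb6 took 17.5, 17.6 and 15.5% against 19.6, 25.9 and 22.4%. For these 2 genes the genotypes did not overlap, and the mean difference (Nf1/Cdkn2a minus Nf1/p53) was −6.70 percentage points for Tubb5 and 5.81 percentage points for Tubb6, with no test. Tubb4b, a broadly made beta isotype outside the 10 genes, had 12.4 to 15.6% in the Nf1/p53 lines and 16.2 to 16.7% in the Nf1/Cdkn2a lines. Tubb2b had 1.90, 1.35 and 2.26% against 0.341, 0.711 and 0.424%, and Tubb2a had 2.51, 2.69 and 3.53% against 1.97, 1.58 and 3.56%. Tubb3 stayed between 0.350 and 1.05% in all lines.

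**Figure D3:**
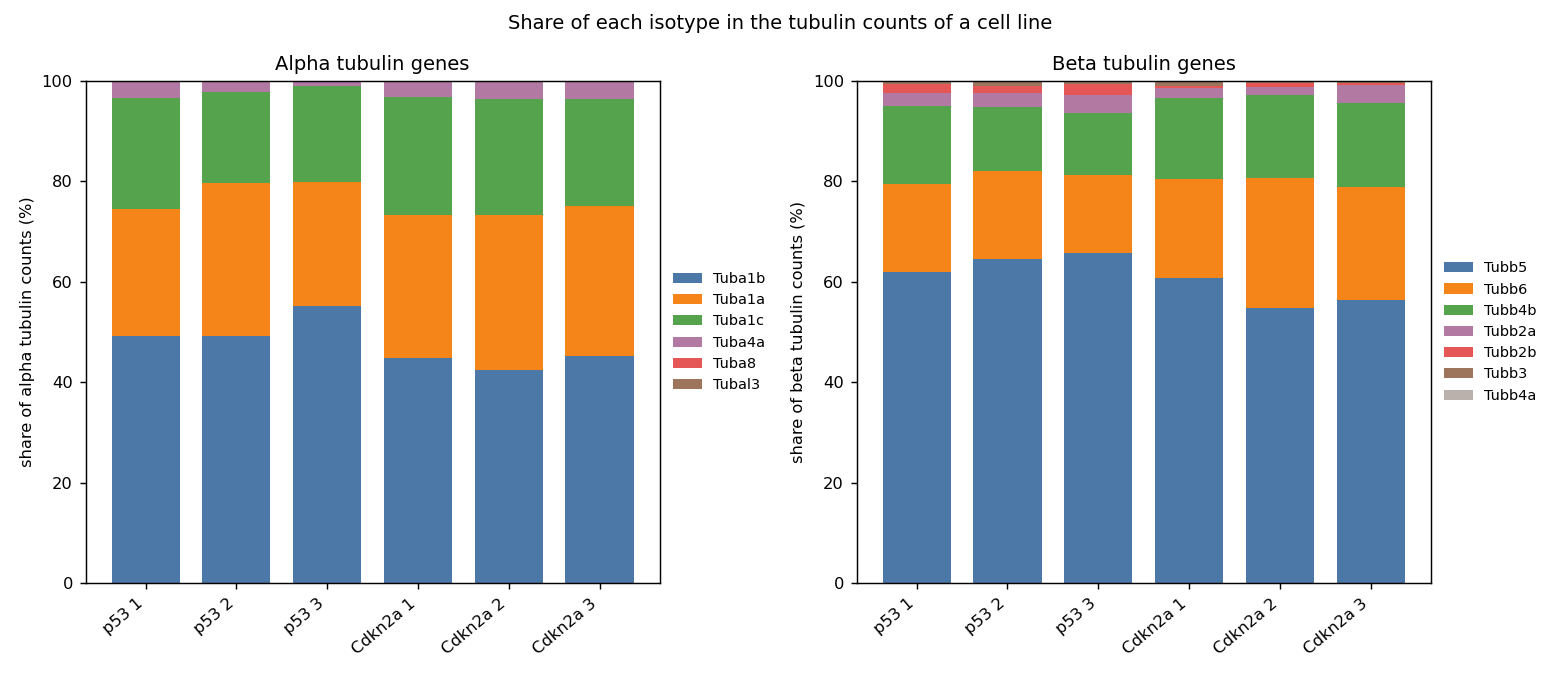
Share of each gene (%) in the alpha tubulin counts (left) and the beta tubulin counts (right) of each of the 6 lines, as stacked bars. Tuba1b and Tubb5 are the largest alpha and beta shares in every line, the Tubb6 share is 15.5 to 17.6% in the Nf1/p53 lines and 19.6 to 25.9% in the Nf1/Cdkn2a lines, and the Tuba8 share, at most 0.195%, is too thin to see.

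All alpha tubulin genes together had 2562, 2657 and 3218 CPM in the Nf1/p53 lines, against 2796, 2516 and 2420 CPM in the Nf1/Cdkn2a lines, which overlap. All beta tubulin genes had 2891, 3050 and 3001 CPM against 3480, 3603 and 3280 CPM, so that each Nf1/Cdkn2a line lay above each Nf1/p53 line. Of the 10 genes, Tubb6 alone was higher without overlap in the beta family, as was Tubb4b outside the 10.

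Levels of the 10 genes were compared as CPM per kilobase of annotated exon. In the Nf1/p53 lines, Tuba1b led with 772 ± 151, followed by Tubb5 with 574 ± 31.1, Tuba1a with 416 ± 50.8, Tuba1c with 243 ± 30.2 and Tubb6 with 206 ± 14.3 (mean ± SD, n = 3 lines). Tuba1c and Tubb6 lay close together, and Tubb6 overtook Tuba1c in the Nf1/Cdkn2a lines, at 322 ± 54.5 against 255 ± 31.2. There Tuba1b (607 ± 53.9) and Tubb5 (595 ± 39.9) differed by less than the spread between lines. Of the 10 genes, Tubb2a came next with 53.9 ± 10.6 in the Nf1/p53 lines and 50.2 ± 19.7 in the Nf1/Cdkn2a lines. Tubb4b, outside the 10, lay above Tubb2a, at 194.2 ± 19.8 in the Nf1/p53 lines and 273.5 ± 12.3 in the Nf1/Cdkn2a lines. In the Nf1/p53 lines Tubb2b (23.8 ± 5.84), Tuba4a (15.9 ± 7.97) and Tubb3 (11.6 ± 4.85) followed, with neighbors in this order that differed by less than the larger SD of the pair. In the Nf1/Cdkn2a lines the order was Tuba4a (22.6 ± 0.62), Tubb3 (11.0 ± 7.13) and Tubb2b (7.47 ± 3.24), and the last 2 differed by less than their spread. Tuba8 was the lowest of the 10 in both genotypes, with 0.0550 ± 0.050 and 1.61 ± 0.56 CPM per kilobase.

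By likeness of pattern, the 5 genes whose log2 CPM followed Tuba8 most closely over the 6 lines were Gm4149, Dot1l, Mafk, Csnk1g1 and Picalm, with Pearson r from 0.996 to 0.999 among 11860 genes. Each has 2 levels that split by genotype, as Tuba8 has, but far closer together. That split follows from the choice by r to Tuba8, itself selected on its genotype difference, and is no separate evidence. Dot1l, a histone H3 methyltransferase, had 64.1, 72.3 and 59.2 CPM in the Nf1/p53 lines, against 95.4, 106 and 107.9 CPM in the Nf1/Cdkn2a lines. Picalm, a clathrin assembly protein, had 206, 260 and 187 CPM against 353, 405 and 388 CPM. For Tubb3, the 5 most alike genes were Sycp1, Rexo2, Lnp, Lrr1 and Zcchc17 (r from 0.928 to 0.986), and Sycp1 had 1.17, 1.97 and 1.30 CPM in the Nf1/p53 lines, against 2.65, 1.11 and 0.845 CPM in the Nf1/Cdkn2a lines. These are the highest of many correlations over 6 points that share their libraries, and they are given as a description.

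Tubulin also depends on genes that fold it, modify it and bind the polymer, and 4 lists of such genes were counted in the same fit. No gene of the 4 lists was called by edgeR at an adjusted p under 0.05. Over all genes tested, 22.4% had an unadjusted p under 0.05, DESeq2 on the 6 lines called 14.4%, the lines did not overlap for 31.4%, and the median log2 fold change was −0.02, and the counts that follow stand beside these values. Of 10 other tubulins, Tuba3a, Tuba3b and Tubb1 had no count in any library, and 5 had enough counts, of which 1 was fitted higher and 4 lower (median −0.26), 1 had an unadjusted p under 0.05 and DESeq2 on the 6 lines called 1. The highest was Tubb4b, with 452, 392 and 373 CPM in the Nf1/p53 lines, against 565, 599 and 549 CPM in the Nf1/Cdkn2a lines (log2 fold change 0.49, SE 0.14, adjusted p = 0.110), and 30.6% of its windows occur in other genes, mostly a pseudogene. The lowest was Tube1, the epsilon tubulin of centrioles (−0.55 ± 0.42, adjusted p = 0.480).

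The 22 folding genes, which include prefoldin, the CCT chaperonin and the tubulin cofactors, were fitted higher for 11 and lower for 11, with a median of −0.02. The lines did not overlap for 7 of the 22, a share near that of all genes (31.4%). Of these 22, 3 had an unadjusted p under 0.05 and DESeq2 on the 6 lines called 1. They ranged from Cct3, a chaperonin subunit, at −0.70 (SE 0.20, adjusted p = 0.106) to Tbcc, the cofactor that completes the alpha and beta pair, at 0.64 (SE 0.22, adjusted p = 0.164).

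Of 22 modifying enzymes and their partners, 18 had enough counts, with 6 fitted higher and 12 lower, a median of −0.28 and no overlap between lines for 8 (31.4% over all genes). An unadjusted p under 0.05 was found for 6 of the 18 (22.4% over all genes), and DESeq2 on the 6 lines called 5 (14.4% over all genes). Agbl2, a carboxypeptidase that trims glutamate from tubulin tails, was the lowest, at 3.56, 2.93 and 4.08 CPM in the Nf1/p53 lines, against 0.481, 0.159 and 0.938 CPM in the Nf1/Cdkn2a lines (log2 fold change −2.74, SE 0.65, adjusted p = 0.0826). The highest was Ttll11, a polyglutamylase (0.92, SE 0.71, adjusted p = 0.486). Atat1 and Ttl were picked with their values known, because the first acts on the lysine shown above and the second adds the terminal tyrosine of alpha tubulin. Atat1 had 7.41, 6.18 and 8.12 CPM against 3.13, 4.17 and 4.10 CPM (log2 fold change −0.93, SE 0.27, adjusted p = 0.114) and Ttl had 34.7, 35.2 and 36.0 CPM against 32.4, 27.0 and 32.3 CPM (−0.21, SE 0.14, adjusted p = 0.432). For neither did the lines overlap, and neither was called.

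Of 34 genes that bind, regulate or sever microtubules, 31 had enough counts, with 12 fitted higher and 19 lower, a median of −0.16 and no overlap between lines for 9 (31.4% over all genes). An unadjusted p under 0.05 was found for 7 of the 31 (22.4% over all genes), and DESeq2 on the 6 lines called 5 (14.4% over all genes). Map7, which recruits kinesin-1, was the lowest, at 2.80, 1.13 and 9.46 CPM in the Nf1/p53 lines, against 0.433, 0.202 and 1.19 CPM in the Nf1/Cdkn2a lines, which overlap (−2.87, SE 0.99, adjusted p = 0.159). Tppp, which bundles microtubules in oligodendrocytes, was the highest on few counts, 21 in the Nf1/p53 lines and 68 in the Nf1/Cdkn2a lines (1.87, SE 1.43, adjusted p = 0.483).

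**Figure D4:**
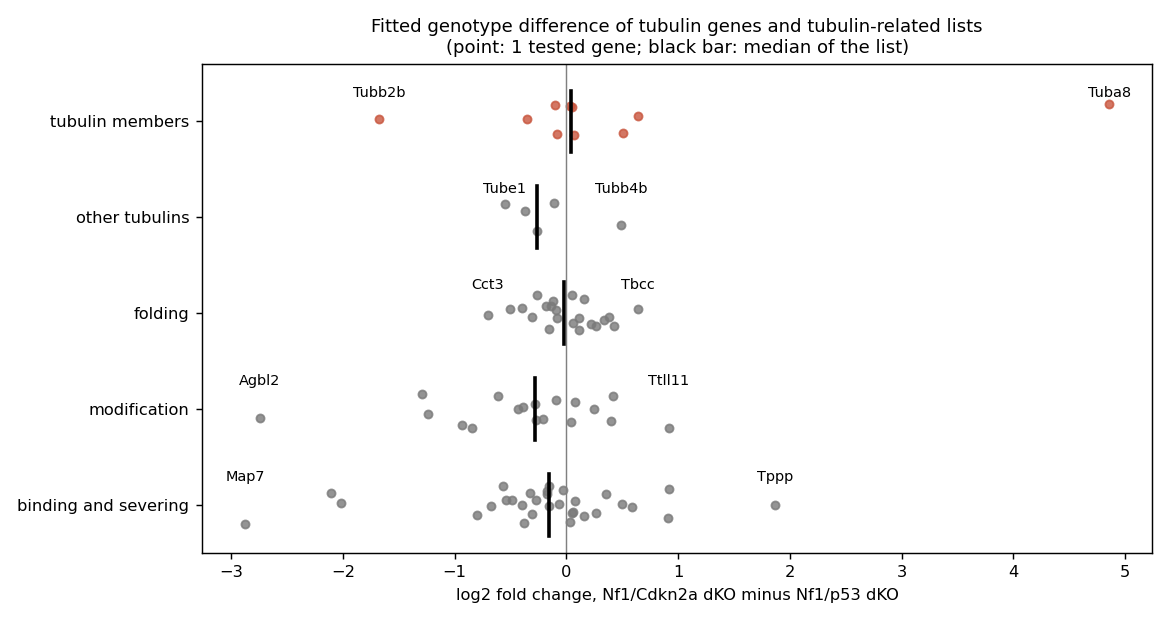
Fitted log2 fold change (Nf1/Cdkn2a dKO minus Nf1/p53 dKO) of each tested gene (points, spread vertically only to be seen) of the 10 tubulin genes (red) and the 4 related lists (gray), with the median of a list as a black bar and its lowest and highest gene named. The medians lie between −0.28 and 0.04. No point of a related list lies as far from 0 as Tuba8, which was selected on this difference.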

How the data were processed

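RNA was measured by RNA-seq in 18 libraries, 3 cultures of each of 6 cell lines. The authors deposited raw counts, whole numbers of reads per gene without normalization. The submitters' processing notes name CASAVA, STAR 2.5, DESeq2 1.14.1 and the builds GRCm38 and mm10; the counting tool, its strand setting and the annotation are not given in the sources used here. Positions, exon lengths and sequences came from GENCODE M21 (GRCm38), which held 34490 of the 35275 gene identifiers.

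Counts were added up over the 3 cultures grown from each line, since these stem from 1 tumor. Cultures differed within lines beyond sampling noise (chi-square per degree of freedom 3.57 to 29.2), so none was taken as a repeat. Genes were kept with filterByExpr (minimum count 10, total 15), scaled with TMM (factors 0.941 to 1.06) and fitted with the quasi-likelihood method of edgeR, with p-values adjusted over all genes by Benjamini and Hochberg (edgeR 4.0.16, limma 3.58.1, DESeq2 1.42.0, R 4.3.3). The same test was run between lines on the 9 cultures of a genotype. Figures used Python 3.11.15 and matplotlib 3.10.9. Svbp is listed in the table as Ccdc23.

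The tubulin genes, related lists and markers were chosen with earlier results of these data known. Named are the 10 genes, the highest, lowest and called genes of each tubulin-related list, the 3 nearest genes on each side of Tuba8, the 5 genes with the highest Pearson r to Tuba8 and to Tubb3 (mean count at least 100 per line), and the targeted genes; a gene picked later for its values is stated as such. Alternatives were other size factors and filters, DESeq2, the 18 cultures as samples, limma-voom with lines as random effects, blocks, and lines or cultures left out. The fits were tested on simulated counts with known changes. Intervals and floors cover counting error only, since no molecular identifiers are stated.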

Additional observations from a re-analysis of the deposited data

How the results depend on the processing

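The count of tubulin genes called between the genotypes was 1 (Tuba8), and it supports nothing, since the genes were proposed with this contrast in view. It stayed 1 with DESeq2's size factors, upper-quartile factors or no filter. It was 3 with DESeq2 on the 6 lines and with limma-voom with lines as random effects (Tuba8, Tubb2b and Tubb6), 4 with edgeR on the 18 cultures (also Tuba1b) and 5 with DESeq2 on the 18 cultures (also Tuba4a), where cultures of a line stand as separate samples. It was 0 with at least 10 counts in every line, which removes Tuba8, and also 0 without any single line. The log2 fold change of Tuba8 was from 4.45 to 5.90 with each line left out. Of the 76 related genes tested (72 on the cultures), edgeR on the 6 lines called 0 (1.80% over all genes), DESeq2 on the 6 lines 12 (14.4%), limma-voom 9 (16.6%), edgeR on the 18 cultures 39 (46.5%) and DESeq2 on them 41 (48.9%). Over all genes the calls, 274, ranged from 0 (line number as a block, or without Nf1/Cdkn2a line 1) to 6409 (DESeq2 on the 18 cultures), with 0 to 172 when a line was dropped.

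With the line number as a replicate block, 0 tubulin genes and 0 related genes were called. Line numbers did not pair the genotypes (correlations of deviations −0.136 to −0.084), and culture numbers did not pair the lines (−0.021 to 0.022). The culture number as a replicate block left the tests of line at 9 and 8 tubulin genes. With the cultures of 1 number left out, these counts ranged from 8 to 9 in the Nf1/p53 lines and from 4 to 7 in the Nf1/Cdkn2a lines, the lowest without culture 3. The differences in isotype share kept their sign and moved by less than the pooled SD of the lines with another denominator, per kilobase or without any culture number, but per kilobase those of Tuba4a (1.07 to 0.57 points), Tubb2a (−0.54 to −1.03) and Tubb3 (−0.13 to −0.21) changed by over 1.5 times. Depth limits Tuba8 in the Nf1/p53 lines, where a line held from 3 to 18 counts.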

Other observations

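The remaining marker lists, which bear on what cells the cultures held, overlapped between the genotypes in summed level, while single markers varied. Of 8 Schwann cell markers, 6 had enough counts, and their summed level ranged from 15.4 to 92.4 CPM in the Nf1/p53 lines and from 7.27 to 66.3 CPM in the Nf1/Cdkn2a lines. Of these 6, 1 was fitted higher in the Nf1/Cdkn2a lines and 5 lower, with a median log2 fold change of −1.71. They ran from Ngfr at −5.40 (SE 2.15), which was high in Nf1/p53 line 2 alone (64.3 CPM), to Gap43 at 0.71 (SE 1.20). The lines overlapped for all 6, while they did not overlap for 31.4% of all genes. An unadjusted p under 0.05 was found for 2 of the 6 (22.4% over all genes). The 6 leukocyte markers summed to 3.72 to 7.58 CPM and 6.56 to 8.13 CPM, with fitted values from −0.76 for Csf1r to 1.06 for Ptprc. The 4 endothelial markers summed to 0.844 to 1.53 CPM and 0.626 to 2.06 CPM. Both with enough counts had an unadjusted p under 0.05 (22.4% over all genes), in opposite directions, Pecam1 at −1.29 (adjusted p = 0.162, edgeR) and Cdh5 at 1.61 (adjusted p = 0.221, edgeR). The 8 mesenchymal markers summed to 10500 to 24310 CPM and 12400 to 19430 CPM, with 4 fitted higher and 4 lower. Among them, Vim had 4727 to 6119 CPM in the Nf1/p53 lines, below the 7214 to 10210 CPM of the Nf1/Cdkn2a lines (log2 fold change 0.75, SE 0.20, adjusted p = 0.0964 from edgeR), and Fn1 was the lowest at −0.95 (SE 0.55). The neuronal markers with enough counts ran from Syt1 at −1.26 (SE 0.44) to Nefl at 0.42 (SE 1.00), and the skeletal muscle marker with the highest fitted value was Tnnt1 at −1.51 (SE 1.27).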
